A study of Mus musculus with 8 samples.

Results

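The genes described here are the Gadd45 family (Gadd45a, Gadd45b and Gadd45g), Cdkn1a, which encodes the cell cycle inhibitor p21, and 6 further genes known as targets of the tumour suppressor p53 (Mdm2, Ccng1, Trp53inp1, Sesn1, Plk2 and Eda2r). The 10 genes were chosen by symbol, each through the probe set annotated to that symbol alone, out of 14860 genes measured in this way. Each of the 10 had a single such probe set. Male C57BL/6 mice of 8 weeks supplied the RNA, from the tibialis anterior, which lifts the foot. The right muscles received 25 µg of pCMV-ATF4-FLAG, a plasmid that encodes mouse ATF4 with a FLAG tag, and the left muscles received 25 µg of pcDNA3 without an insert. Both plasmids were delivered by electroporation in vivo, and RNA was taken on day 11 from animals that had not been fasted. The experiment was done 4 times, which gave 4 arrays per group, with 1 array of either kind in each experiment.

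Several features limit the samples as a model of ATF4 action. Every muscle was electroporated, no untransfected muscle was analysed here, and the side of the leg and the plasmid cannot be told apart. The CMV promoter named in the plasmid is not restricted to muscle fibres, and whole muscle was extracted, so fewer cells of a type and less RNA per cell cannot be told apart. How many mice made up an experiment is not stated in the labels. P-values refer to these 4 pairs, and limma combines the spread between them with that of other probe sets.

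Gadd45 proteins are small stress-induced proteins that bind the kinase Map3k4, an activator of p38 and JNK signalling, and the cell cycle kinase Cdk1. Gadd45a is known in muscle as a gene induced by denervation, fasting and ATF4, and its forced expression causes fibre atrophy in mice. p21 blocks cyclin-dependent kinases and is the classic p53 target, but it is also induced without p53 when muscle cells leave the cell cycle. The other p53 targets feed back on p53 (Mdm2, Ccng1) or act in stress, growth control and death signalling (Trp53inp1, Sesn1, Plk2, Eda2r).

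The stretch of 250 bases before the annotated start is shown for the Gadd45 family and for the upstream start of Cdkn1a, because these genes include the pair with the largest differences of the 10, Gadd45a and Cdkn1a, and the paralogs of Gadd45a. Sequences are from RefSeq on GRCm38.p6, read 5′ to 3′ in the direction of the gene, and 9 of the 10 genes matched an entry, with 11 starts in all. Capitals mark a match to TGATGNAAN, an element that ATF4 binds with C/EBP partners, or to the p53 half-site, both searched on either strand.
Gadd45a: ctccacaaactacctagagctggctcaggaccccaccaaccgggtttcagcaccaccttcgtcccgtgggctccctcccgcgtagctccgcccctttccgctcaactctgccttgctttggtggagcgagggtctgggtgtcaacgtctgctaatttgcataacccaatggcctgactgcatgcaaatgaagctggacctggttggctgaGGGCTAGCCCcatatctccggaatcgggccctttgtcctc
Gadd45b: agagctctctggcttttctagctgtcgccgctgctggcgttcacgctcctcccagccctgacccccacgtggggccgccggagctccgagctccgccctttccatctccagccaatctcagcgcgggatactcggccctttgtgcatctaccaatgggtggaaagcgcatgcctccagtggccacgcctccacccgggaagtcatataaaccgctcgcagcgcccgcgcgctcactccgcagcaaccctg
Gadd45g: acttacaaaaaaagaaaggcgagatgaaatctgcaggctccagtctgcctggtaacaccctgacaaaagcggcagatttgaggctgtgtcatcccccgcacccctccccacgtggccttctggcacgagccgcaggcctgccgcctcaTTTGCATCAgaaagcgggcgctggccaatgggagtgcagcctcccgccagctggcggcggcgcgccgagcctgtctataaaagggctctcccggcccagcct
Cdkn1a, upstream start: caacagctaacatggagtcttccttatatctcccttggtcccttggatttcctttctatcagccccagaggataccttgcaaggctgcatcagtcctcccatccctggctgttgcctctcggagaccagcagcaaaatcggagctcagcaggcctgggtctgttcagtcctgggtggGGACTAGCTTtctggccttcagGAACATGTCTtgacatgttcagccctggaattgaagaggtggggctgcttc

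The Gadd45a stretch lies at chr6:67037408-67037657 on the minus strand, that of Gadd45b at chr10:80929841-80930090 on the plus strand, and that of Gadd45g at chr13:51846425-51846674 on the plus strand. The Cdkn1a stretch lies at chr17:29090729-29090978 on the plus strand, and a second annotated start has its own stretch at chr17:29093519-29093768. The element TGATGNAAN occurred in Gadd45g alone among the 11 stretches, on the opposite strand as TGATGCAAA, 102 to 94 bases before the start. It occurs in 3.44% of all 32851 promoters of the table at this length. A p53 half-site occurred in Gadd45a (GGGCTAGCCC, 40 to 31 bases before the start), in the upstream Cdkn1a stretch (GGACTAGCTT at 73 to 64 and GAACATGTCT at 51 to 42 bases), and in Mdm2, Ccng1 and 1 of the 2 Sesn1 stretches. Such a half-site occurs in 7.13% of all promoters. A pair of half-sites with no bases between them occurred in none of the 11 stretches and in 0.00913% of all promoters. Pairs with bases between them, as at the 2 half-sites of the upstream Cdkn1a stretch, were not searched for. In the upstream Cdkn1a stretch GAACATGTCT is followed directly by tgacatgttc, which departs from the half-site pattern at its first base. That pair was therefore not counted. A match describes the letters only, and binding was not tested.

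Of the 10 genes, Gadd45a and Cdkn1a were higher in the muscles labelled ATF4 in each of the 4 experiments by at least 0.40 on the log2 scale, and neither passed the threshold of 0.05 after adjustment over all probe sets. The other 8 genes differed on average by -0.10 to 0.15, and 3 of these 8 were above 0 and 5 below it. In limma, with experiment as a block and Benjamini-Hochberg adjustment over 16755 probe sets, 0 of the 10 genes passed in either direction. The background was 0.0179% of probe sets passing as higher and 0.0% passing as lower. With an unadjusted p under 0.05, 2 of the 10 genes were higher (Gadd45a and Cdkn1a), where 3.23% of all probe sets were, and 0 were lower, where 2.77% were. A mean difference above 0.5 was found for the same 2 genes and for 1.49% of all probe sets. In 0 of the 10 genes were the 2 groups free of overlap, which was so for 1.41% of all probe sets with ATF4 above and for 0.752% with ATF4 below. The median difference was -0.03 over the 10 genes and 0.017 over all probe sets. Differences are given throughout as ATF4 minus empty vector, and levels and differences are log2 RMA values.

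The transfected gene itself did not pass the threshold. Atf4 (probe set 6831994) stood at 6.65, 6.56, 6.72 and 6.18 in experiments 1 to 4 in the ATF4 arrays, against 6.42, 6.24, 6.48 and 6.23 in the empty vector arrays. Its difference was 0.18 (SE 0.11, adjusted p = 0.846, limma, n = 4 pairs), positive in experiments 1 to 3 and -0.05 in experiment 4. The sources used here do not place its probes on the transcript, so this probe set may not read the plasmid. The ATF4 arrays are therefore those labelled ATF4. The 12 measured markers of skeletal muscle fibres had list means of 9.70 to 9.95 in the ATF4 arrays and 9.78 to 9.91 in the empty vector arrays. Of these 12 markers 11 were lower with ATF4, and 54.5% of all probe sets were higher. The median difference of the 12 markers was -0.05, and 0 of them passed the threshold or had an unadjusted p under 0.05. With quantile normalization 7 of the 12 were higher. Array medians were 4.38 to 4.44 for ATF4 and 4.29 to 4.44 for empty vector.

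Gadd45a (probe set 6954385) stood at 6.10, 5.59, 6.32 and 6.38 in experiments 1 to 4 with ATF4, against 5.0, 5.16, 5.82 and 5.55 with empty vector. The ATF4 array was the higher of the pair in every experiment, but the groups overlapped, because the empty vector array of experiment 3 lay above the ATF4 array of experiment 2. The group means were 6.10 ± 0.36 with ATF4 and 5.38 ± 0.37 with empty vector (SD, n = 4 each). The differences were 1.10, 0.43, 0.50 and 0.82 in experiments 1 to 4, which is 1.35-fold at the lowest and 2.15-fold at the highest. Their mean was 0.71 (SE 0.14, 95% interval 0.39 to 1.04), a 1.64-fold difference with an adjusted p of 0.431 in limma over all probe sets (unadjusted p = 0.000977). By p-value Gadd45a ranked 38 of 16755 probe sets, and by size of the difference it ranked 81. Leaving out each experiment in turn gave 0.58 to 0.81.

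**Figure D1:**
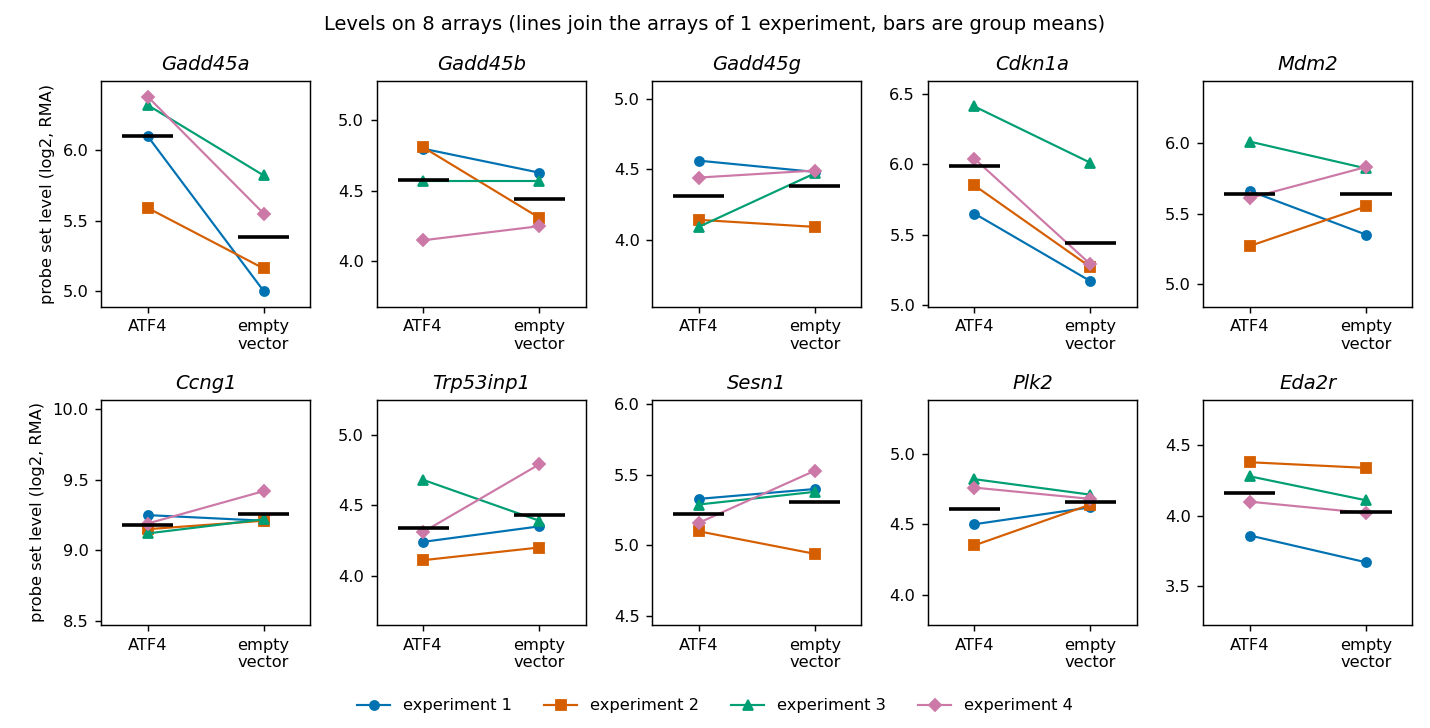
Probe set levels (log2, RMA) of the 10 genes on the 8 arrays, ATF4 at the left and empty vector at the right of each panel, with a line for each of the 4 experiments and a black bar for each group mean. All 4 lines of Gadd45a and Cdkn1a run higher at ATF4, as do the shallow lines of Eda2r, and the lines of the other genes cross or run both ways. Every panel spans the same 1.6 log2 units.

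The paralogs of Gadd45a had smaller mean differences. Gadd45b (probe set 6769255), a stress gene induced by NF-kappaB and TGF-beta signalling, stood at 4.80, 4.81, 4.57 and 4.15 with ATF4, against 4.63, 4.31, 4.57 and 4.25 with empty vector. The groups overlapped, and only experiment 2 showed a difference of a size seen for Gadd45a, at 0.50. Its mean difference was 0.15 (SE 0.13, 95% interval -0.16 to 0.45, adjusted p = 0.875, limma). Without experiment 2 the mean was 0.03, and without experiment 4 it was 0.23.

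Gadd45g (probe set 6807041), known as a cytokine-induced member of the family, stood at 4.56, 4.14, 4.09 and 4.44 with ATF4, against 4.48, 4.09, 4.47 and 4.49 with empty vector. The empty vector array of experiment 2 was low and so was its ATF4 partner, and in experiment 3 only the ATF4 array was low. The mean difference was -0.07 (SE 0.12, 95% interval -0.36 to 0.22, adjusted p = 0.941, limma), and it turned to 0.03 without experiment 3. Gadd45g was among the dimmest 50% of probe sets.

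Set against its paralogs within the same experiment, the Gadd45a difference was larger than that of Gadd45g in 4 of 4 experiments and larger than that of Gadd45b in 3 of 4. The excess over Gadd45g was 1.02, 0.38, 0.87 and 0.87 in experiments 1 to 4, with a mean of 0.78 ± 0.28 (SD, n = 4). The excess over Gadd45b was 0.93, -0.07, 0.50 and 0.92, with a mean of 0.57 ± 0.47 (SD, n = 4). With 4 experiments an exact permutation test of signs, two-sided, cannot go below 0.125, so these values are a description.

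Cdkn1a (probe set 6849595) stood at 5.65, 5.85, 6.41 and 6.04 in experiments 1 to 4 with ATF4, against 5.17, 5.27, 6.01 and 5.29 with empty vector. The ATF4 array was the higher of each pair, and the groups overlapped through the empty vector array of experiment 3 alone, which lay above 2 ATF4 arrays. The means were 5.99 ± 0.33 with ATF4 and 5.44 ± 0.39 with empty vector (SD, n = 4 each). The differences of 0.48, 0.58, 0.40 and 0.74 correspond to 1.32-fold at the lowest and 1.67-fold at the highest. Their spread (SD 0.15) was smaller than that of the Gadd45a differences (SD 0.31). The mean was 0.55 (SE 0.11, 95% interval 0.29 to 0.81), a 1.47-fold difference with an adjusted p of 0.497 in limma (unadjusted p = 0.00126). This was rank 42 of 16755 probe sets by p-value and rank 187 by size, and leaving out experiments in turn gave 0.49 to 0.60.

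The level of Cdkn1a also varied between experiments. In the 4 empty vector arrays it spanned 0.84, and the SD of the experiments' pair means was 0.35. Experiment 3 was the highest experiment on either side. In that experiment 17 of 19 macrophage markers were also at their highest, among the empty vector arrays and again among the ATF4 arrays. All probe sets had their highest empty vector value there in 18.4% of cases and their highest ATF4 value there in 23.8%. The list mean of satellite and cycling cell markers was also highest in experiment 3, at 4.57 with empty vector and 4.61 with ATF4. Of the cycling cell markers, Mki67, Top2a and Birc5 were highest there on both sides, and Mcm2 had its lowest ATF4 value there. Of the satellite cell markers, Pax7 had its lowest ATF4 value there, and Myf5 and Vcam1 were highest there with ATF4 only. Gadd45a and Plk2 too had their highest empty vector value in experiment 3. The macrophage list mean was 6.33, 6.38, 6.90 and 5.78 with ATF4, against 6.03, 6.00, 6.86 and 5.97 with empty vector. In experiments 1 to 4 it differed by 0.31, 0.38, 0.03 and -0.19, and Cdkn1a by 0.48, 0.58, 0.40 and 0.74. Single macrophage markers went both ways in experiment 4, from -1.17 for Ptprc to 1.13 for Cd68. Of the 19 macrophage markers 13 were higher with ATF4, where 54.5% of all probe sets were. The list median was 0.13, and 0 of the 19 passed the adjusted threshold. The median was 0.01 without experiment 1 and 0.25 without experiment 4. At an unadjusted p under 0.05, 3 of the 19 macrophage markers were higher and 0 lower, against 3.23% and 2.77% of all probe sets. The 3 markers were C1qb, a complement subunit, at 0.55 (SE 0.14), Ctsz, a lysosomal protease, at 0.33 (SE 0.11), and Laptm5, a lysosomal membrane protein, at 0.32 (SE 0.13). No macrophage marker was among the dimmest 25% of probe sets. The part of macrophage RNA in the Cdkn1a and Gadd45a levels was not tested.

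**Figure D2:**
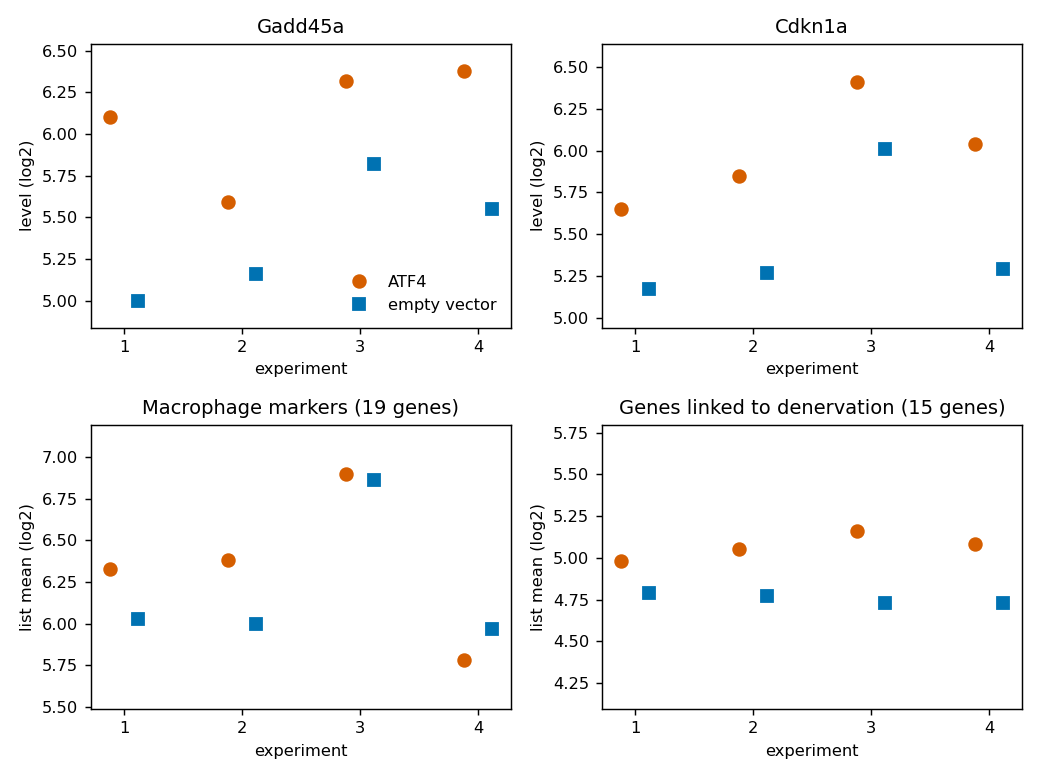
Levels (log2) of Gadd45a and Cdkn1a, and the list means (log2) of 19 macrophage markers and of 15 genes linked to denervation, by experiment, with orange circles for ATF4 arrays and blue squares for empty vector arrays. The macrophage list mean is highest in experiment 3 on both sides and lower with ATF4 in experiment 4, where single markers went both ways. Gadd45a, Cdkn1a and the denervation list mean are higher with ATF4 in each experiment. Every panel spans the same 1.7 log2 units.

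Genes linked to denervation, a setting in which muscle is known to induce Gadd45a and Cdkn1a, were on the higher side. The 15 measured genes of this list differed by 0.01 to 1.07, with a median of 0.30, against 0.017 over all probe sets, and 15 of 15 were above 0, where 54.5% of all probe sets were. Of the 15 genes, 0 passed the adjusted threshold and 8 were higher at an unadjusted p under 0.05, where 3.23% of all probe sets were. The list mean was 4.98, 5.05, 5.16 and 5.08 with ATF4, against 4.79, 4.77, 4.73 and 4.73 with empty vector. With median centring 13 of the 15 were above 0, and with quantile normalization 14. Chrna1, the alpha subunit of the muscle acetylcholine receptor, differed by 1.07 (SE 0.17), Ncam1, an adhesion molecule, by 0.64 (SE 0.15), Chrnd, the delta subunit, by 0.43 (SE 0.12), and Musk, a kinase of the nerve-muscle synapse, by 0.39 (SE 0.12). The smallest differences were those of Dach2 (0.01, among the dimmest 25% of probe sets), Ky (0.01), Hdac4 (0.04) and Hdac9 (0.07). The genes were not sorted by the direction in which denervation changes each, so a count above 0 is not a count of denervation-like changes. The list was chosen with earlier results of these data known, and is no independent evidence of direction.

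Mdm2, the ubiquitin ligase that degrades p53 and is itself induced by p53, had the same mean in both groups, 5.64. Its probe set (6777346) stood at 5.66, 5.27, 6.01 and 5.61 with ATF4, against 5.35, 5.55, 5.82 and 5.83 with empty vector. It was higher with ATF4 in experiments 1 and 3, by 0.31 and 0.19, and lower in experiments 2 and 4, at -0.28 and -0.22. The 95% interval of the mean difference ran from -0.32 to 0.32 (SE 0.14, adjusted p = 1.00, limma), so differences of more than 1.25-fold in the higher direction lie outside it.

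Ccng1, which encodes cyclin G1, a partner of Mdm2 and of phosphatase 2A, had the smallest spread within the ATF4 arrays among the 10 genes (SD 0.06). The probe set (6787474) stood at 9.25, 9.15, 9.12 and 9.19 with ATF4, against 9.21, 9.21, 9.22 and 9.42 with empty vector. The empty vector array of experiment 4 was the high one, and the ATF4 array was lower than its partner in experiments 2, 3 and 4. The mean difference was -0.09 (SE 0.10, 95% interval -0.31 to 0.13, adjusted p = 0.896, limma), and -0.04 without experiment 4.

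Trp53inp1, a nuclear stress protein of the p53 response that also acts in autophagy, differed in both directions. It stood at 4.24, 4.11, 4.68 and 4.31 with ATF4, against 4.35, 4.20, 4.39 and 4.79 with empty vector (probe set 6911679). The ATF4 array was the higher in experiment 3 alone, by 0.29, and the lower by -0.47 in experiment 4. The mean was -0.10 (SE 0.14, 95% interval -0.43 to 0.23, adjusted p = 0.927, limma), and 0.03 without experiment 4.

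Sesn1, a sestrin that restrains the growth kinase complex mTORC1, was the higher with ATF4 in experiment 2 alone. Its levels were 5.33, 5.10, 5.29 and 5.16 with ATF4, against 5.40, 4.94, 5.38 and 5.53 with empty vector (probe set 6767402). The ATF4 arrays lay inside the range of the empty vector arrays. The mean difference was -0.09 (SE 0.12, 95% interval -0.38 to 0.19, adjusted p = 0.917, limma). It was -0.18 without experiment 2 and -0.00035 without experiment 4.

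Plk2, a polo-like kinase of the stress response and centriole duplication, was nearly level across the empty vector arrays, with a range of 0.09. It stood at 4.50, 4.35, 4.82 and 4.76 with ATF4, against 4.62, 4.64, 4.71 and 4.68 with empty vector (probe set 6810166). The ATF4 arrays lay on both sides of that narrow range, below it in experiments 1 and 2 and above it in experiments 3 and 4. The mean difference was -0.05 (SE 0.12, 95% interval -0.33 to 0.22, adjusted p = 0.957, limma).

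Eda2r, the receptor of the ectodysplasin form EDA-A2 and a member of the TNF receptor family, was higher with ATF4 in 4 of 4 experiments by small amounts. It stood at 3.86, 4.38, 4.28 and 4.10 with ATF4, against 3.67, 4.34, 4.11 and 4.02 with empty vector (probe set 7018366). The experiments differed from each other more than the plasmids did, since the empty vector levels spanned 0.68 and the differences were 0.20, 0.03, 0.17 and 0.08. Their mean was 0.12 (SE 0.11, 95% interval -0.13 to 0.37, adjusted p = 0.876, limma). With Gadd45a and Cdkn1a, 3 of the 10 genes were higher in 4 of 4 experiments, where 8.25% of all probe sets were, and 0 were lower in 4 of 4, where 6.64% were. Eda2r was also among the dimmest 50% of probe sets.

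**Figure D3:**
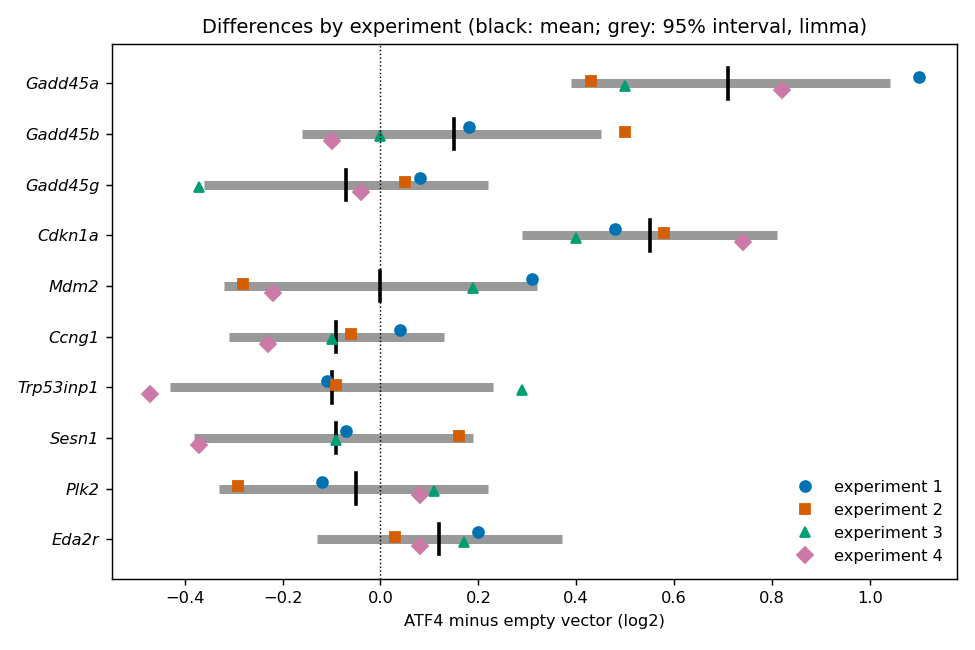
Differences of the 10 genes (log2, ATF4 minus empty vector) in each of the 4 experiments (coloured symbols), with the mean (black bar) and its 95% interval from limma (grey). The intervals of Gadd45a (0.39 to 1.04) and Cdkn1a (0.29 to 0.81) lie above 0 before any adjustment, and the other 8 include 0.

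The upper ends of the 95% intervals bound how large a mean increase of the 8 other genes could be. They ran from 1.10-fold for Ccng1 to 1.37-fold for Gadd45b, and the lower ends ran from 0.744-fold for Trp53inp1 to 0.911-fold for Eda2r. These intervals are not adjusted for the number of probe sets. The difference of Cdkn1a exceeded the mean of the 6 other p53 targets by 0.44, 0.67, 0.31 and 0.93 in experiments 1 to 4, with a mean of 0.59 ± 0.27 (SD, n = 4). This too is a description, since Cdkn1a was set apart for its difference.

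The count of genes above 0 varied by experiment. With ATF4, 7, 6, 7 and 4 of the 10 genes were higher in experiments 1 to 4, where 48.1%, 50.2%, 52.6% and 57.2% of all probe sets were. In experiment 4 the 6 genes that were lower were Gadd45b, Gadd45g, Mdm2, Ccng1, Trp53inp1 and Sesn1, and 5 of these had their highest empty vector level in that experiment (Gadd45b did not). Over all probe sets 25.4% had it there, and genes taken for being lower in an experiment tend to have a high empty vector value in it. The differences of all probe sets were also widest in experiment 4, with an SD of 0.49 against 0.26 in experiment 3. The Gadd45a difference was exceeded by 0.740%, 9.32%, 3.23% and 4.23% of probe sets in experiments 1 to 4, and that of Cdkn1a by 5.94%, 5.04%, 5.29% and 5.59%. Cdkn1a thus held nearly the same place in the 4 distributions, and Gadd45a moved within them.

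The rest of the p53 pathway was mixed in direction. Of 12 measured genes of p53 regulation 5 were higher and 7 lower, with a median of -0.02, and 8 were higher without experiment 4. Over all probe sets 54.5% were higher. The gene of p53 itself, Trp53, was not matched to a probe set with a single gene. Usp7, a deubiquitinase of Mdm2 and p53, differed by -0.38 (SE 0.16) and Trp63, a relative of p53, by 0.26 (SE 0.12). The difference of Usp7 was -0.96 in experiment 4 and between -0.30 and -0.02 in the others. Mdm4, an inhibitor of p53 related to Mdm2, differed by -0.11 (SE 0.18) and the kinase Atm by -0.10 (SE 0.16). In this list 0 genes passed the adjusted threshold and 1 had an unadjusted p under 0.05 (Usp7, lower), where 2.77% of all probe sets were lower.

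Among 22 measured p53 targets of arrest, repair and metabolism other than the 10 genes, 16 were higher and 6 lower, with a median of 0.09. Over all probe sets 54.5% were higher. Of the 22 genes 0 passed the adjusted threshold (limma), and 1 was higher at an unadjusted p under 0.05, where 3.23% of all probe sets were. That gene was Cd82, a tetraspanin, at 0.27 (SE 0.11). Sesn2, the sestrin that is also a known target of ATF4, differed by 0.29 (SE 0.14), Gpx1, a glutathione peroxidase, by 0.28 (SE 0.14), and Ccng2, the paralog of Ccng1, by -0.25 (SE 0.14). Sesn2 was higher in 4 of 4 experiments, as 8.25% of all probe sets were, and Sesn1 in 1 of 4. The difference of Sesn2 was 0.03 in experiment 3, and its probe set was among the dimmest 25%. In experiments 1 to 4 the mean of this list was apart by 0.07, 0.12, 0.05 and 0.06.

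Among 16 measured p53 targets of cell death 7 were higher, where 54.5% of all probe sets were, and 9 lower. The list median was -0.01, and 0 of the 16 genes passed the adjusted threshold. Tnfaip8, a regulator of death signalling, was lower in 4 of 4 experiments at -0.34 (SE 0.12). It had the only unadjusted p under 0.05 of the list, where 2.77% of all probe sets were lower. Over all probe sets 6.64% were lower in 4 of 4. Siva1, a death domain partner of TNF receptors, differed by -0.86 (SE 0.38), with -2.60 in experiment 4 against -0.66 to 0.14 in the others. Fas, a death receptor, differed by -0.27 (SE 0.20), with -1.11 in experiment 4 against -0.09 to 0.08 elsewhere. Bbc3, which encodes the pro-apoptotic protein Puma, differed by 0.12 (SE 0.11).

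Other CDK inhibitors included a second gene on the higher side. Cdkn1c, which encodes p57 and is related to Cdkn1a, stood at 5.38, 5.48, 5.34 and 5.70 with ATF4, against 5.34, 4.97, 5.0 and 4.99 with empty vector. The lowest ATF4 array and the highest empty vector array were both at 5.34 after rounding. The groups did not overlap, as in 1.41% of all probe sets with ATF4 above. Its difference was 0.41 (SE 0.14, adjusted p = 0.754, limma). Of the 6 measured inhibitors 4 were higher, where 54.5% of all probe sets were. The list median was 0.16, and 0 of the 6 passed the adjusted threshold. Without experiment 2 only 1 of the 6, Cdkn1c, was higher. Cdkn2b differed by -0.21 (SE 0.19), Cdkn2a by 0.15 (SE 0.15) and Cdkn3, a phosphatase of CDKs, by 0.16 (SE 0.17).

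None of the kinases through which Gadd45 proteins act passed the threshold. Of 9 measured partners and p38 pathway kinases 5 were higher, where 54.5% of all probe sets were, and 4 lower. The list median was 0.04, and 0 of the 9 had an unadjusted p under 0.05. Without experiment 4, 3 of the 9 were higher. Map2k6, an activator of p38, differed by -0.27 (SE 0.15), Mapk13 by 0.24 (SE 0.14), Mapk12 by 0.12 (SE 0.13) and Mapk14 by -0.10 (SE 0.11), the last 3 being p38 kinases. Map3k4, the direct partner of Gadd45 proteins, differed by -0.05 (SE 0.11). Of 11 relatives of single genes described here 7 were higher, again against 54.5% of all probe sets. The list median was 0.16 (0.06 without experiment 4), and 0 of the 11 had an unadjusted p under 0.05. Besides Sesn2 and Ccng2, the relatives included Sesn3 at 0.23 (SE 0.14), and Edar, a receptor related to Eda2r, at 0.21 (SE 0.13).

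**Figure D4:**
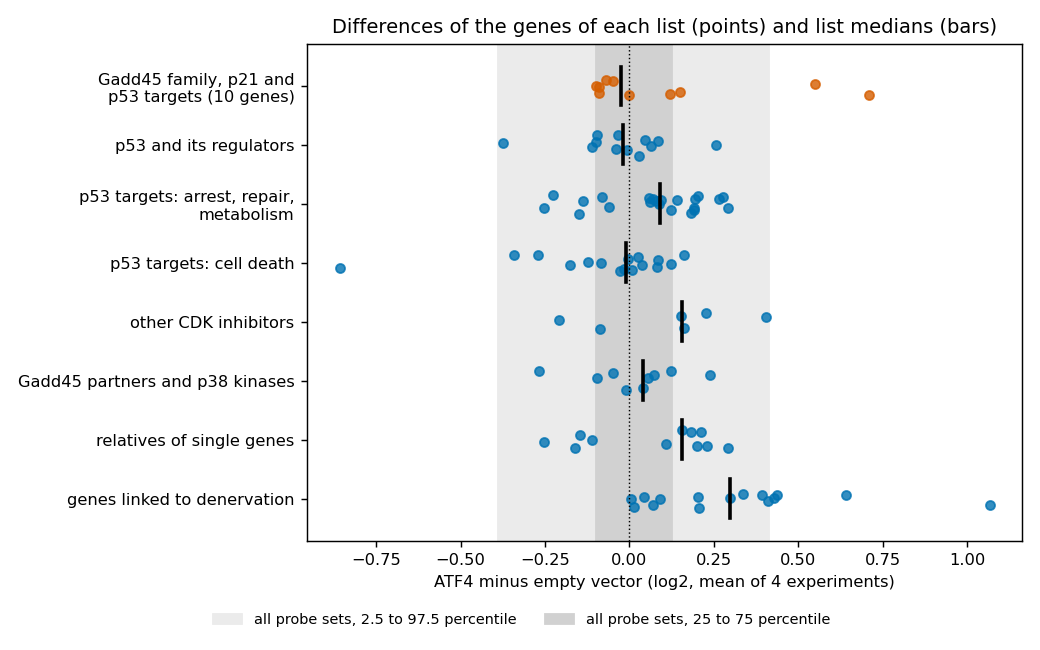
Differences (log2, ATF4 minus empty vector, mean of 4 experiments) of the 10 genes (orange points) and of the genes of 7 related lists (blue points), with list medians as black bars and the spread of all 16755 probe sets as grey bands. Of the 10 genes Gadd45a and Cdkn1a lie beyond the outer band and 8 lie near 0, and the denervation list has 15 of 15 points above 0 (13 of 15 with median centring).

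Markers of other cells that a whole muscle holds were summed up beside these results. Over all probe sets 54.5% were higher with ATF4. Of 11 markers of satellite and cycling cells 7 were higher (5 without experiment 4), with a median of 0.07 (0.03 without experiment 3), and their list means ran from 4.26 to 4.61 with ATF4 and 4.14 to 4.57 with empty vector. Fibroblast and matrix markers had 8 of 11 genes higher and a median of 0.21, with list means of 6.10 to 6.73 with ATF4 and 6.10 to 6.38 with empty vector. Endothelial markers had 3 of 9 higher (6 of 9 without experiment 3) and a median of -0.03, with list means of 5.08 to 5.28 with ATF4 and 5.11 to 5.28 with empty vector. The matrix median was 0.04 without experiment 4, with 6 of 11 genes higher, and 0.33 without experiment 2. In these 3 lists 0 genes passed the adjusted threshold. At an unadjusted p under 0.05, 3 of the 11 matrix markers were higher, where 3.23% of all probe sets were. The 3 markers were Fn1, fibronectin, at 0.46 (SE 0.13), Col6a3, a collagen chain, at 0.42 (SE 0.15), and Bgn, biglycan, at 0.37 (SE 0.14). The groups of Fn1 and Col6a3 did not overlap, nor did those of Mcm2, a cycling cell marker, all with ATF4 above. Over all probe sets this was so for 1.41%. At an unadjusted p under 0.05, 2.77% of all probe sets were lower and, of these lists, only Tek, an endothelial receptor kinase, at -0.33 (SE 0.12). Its groups did not overlap either, with ATF4 below, as in 0.752% of all probe sets. The matrix list differed most in experiment 4, by 0.63, and the part of these cells in the Gadd45a and Cdkn1a differences was not tested.

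The genes whose pattern over the 8 arrays was most like that of Gadd45a were found by the root mean square difference of levels after each gene was centred on its own mean. They were Mybph (0.22), a myosin-binding protein, Prepl (0.23), Peg3 (0.23), an imprinted zinc finger gene, Lrrn1 (0.24) and Atp2a2 (0.24), the slow and cardiac calcium pump. All 5 were higher with ATF4 in 4 of 4 experiments, as 8.25% of all probe sets were. Their choice by likeness to Gadd45a, which was higher in each experiment, favours this direction. Mybph differed by 0.62 (SE 0.11) and Peg3 by 0.85 (SE 0.12), and none of the 5 passed the adjusted threshold. Cdkn1a was at rank 11 of the 14859 other genes, with 0.26.

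For Cdkn1a the nearest patterns were Hpgds (0.14), a prostaglandin D synthase, Cxcr4 (0.15), a chemokine receptor, Lgals3 (0.16), which encodes galectin-3 and is abundant in macrophages, Mthfd2 (0.17), a mitochondrial folate enzyme, and Fbxo5 (0.17), an inhibitor of the anaphase-promoting complex. These 5 genes were at their highest empty vector level in experiment 3, as Cdkn1a was, which their choice by likeness to it favours. Gadd45a was at rank 77 from Cdkn1a. Gadd45b and Gadd45g were at ranks 8424 and 5236 from Gadd45a. The arrays share experiments and plasmids, and genes with the same treatment difference and the same high experiment come close on this measure whatever their function.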

How the data were processed

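The deposited values are log2 probe set levels of 8 mouse exon arrays, made by the authors with RMA, per the submitters' processing notes. That they are logarithms to base 2 was judged from their range. RMA's version and settings: not given in the sources used here. A human build, hg18, is listed too, and the sources used here do not say what it served for, so no probe set is placed on a genome. RNA was amplified and labelled with biotin, per the labels' protocols. Detection calls were not used, so background cannot be told from low expression, and the number of arrays limits the precision.

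Of 16755 probe sets, 14996 were annotated to 1 gene, 1019 to several and 740 to none; 14941 Entrez identifiers matched GRCm38.p6, with 0 symbols updated. All probe sets were fitted with limma 3.58.1 in R 4.3.3 (trended prior, 4.96 prior and 3 residual degrees of freedom), two-sided, with a threshold of 0.05 after Benjamini-Hochberg adjustment. Experiment number was a fixed block, because the study's design sets the right muscle against the left within each experiment. Deviations of paired arrays from their group means correlated at 0.07, 0.31, 0.55 and 0.05 in experiments 1 to 4. The fit was tested on simulated data.

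The genes and the 12 lists (182 entries) were chosen with earlier results of these data known. Named were the 10 genes, Atf4, up to 4 genes of smallest p per pathway list, and the 5 nearest patterns of Gadd45a and of Cdkn1a. Map3k4 was added as the partner of Gadd45 proteins, and the genes of smallest difference in the denervation list were added too. Markers of other cells were named for an unadjusted p under 0.05, for groups without overlap, or to show where a list was mixed. The counts and ranks by experiment were chosen after the values were seen. The closing part gives the alternatives.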

Additional observations from a re-analysis of the deposited data

Results flagged for a closer look

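Among the 10 genes, Atf4 and the 12 list means, 46 groups of 4 arrays were examined for 1 array far from the other 3. By chance about 1 in 20 such groups is picked out, or 2.3 of 46, and 5 were. The empty vector array of experiment 3 had Cdkn1a at 6.01, and the other empty vector arrays had it at 5.17 to 5.29. The macrophage list mean stood at 6.86 in the same array, against 5.97 to 6.03. In the ATF4 array of experiment 3 the list mean of satellite and cycling cell markers was 4.61, against 4.26 to 4.31. In that array the cycling cell marker Mki67 had its highest ATF4 value (6.64) and the satellite cell marker Pax7 its lowest (4.17). With empty vector, Gadd45g stood at 4.09 in experiment 2, against 4.47 to 4.49, and Ccng1 at 9.42 in experiment 4, against 9.21 to 9.22.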

How the results depend on the processing

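In limma 0 of the 10 genes passed the adjusted threshold under all 14 alternatives, and 4 to 6 of the genes were above 0 (also 4 to 6 without each experiment in turn). At most 0.143% of the probe sets tested passed under any alternative, so a count of 0 says little about these genes. Gadd45a differed by 0.58 to 0.81 (adjusted p 0.186 to 1.00) and Cdkn1a by 0.48 to 0.61 (adjusted p 0.193 to 1.00). Without experiment as a block, the adjusted p was 1.00 for Gadd45a (0.71, SE 0.22) and for Cdkn1a (0.55, SE 0.21), and 5 genes were above 0. No call was made among the 10 genes with or without the block. The sign of small differences turned in 7 cases. Mdm2 was at -0.04 with median centring, -0.10 without experiment 1 and -0.06 without experiment 3. Trp53inp1 was at 0.08 with array weights and 0.03 without experiment 4, Plk2 at 0.02 without experiment 2, and Gadd45g at 0.03 without experiment 3. Without each experiment in turn, Mdm2 ranged from -0.10 to 0.10, Trp53inp1 from -0.23 to 0.03, Plk2 from -0.11 to 0.02 and Gadd45g from -0.12 to 0.03. The cause was not tested. Averaging probe sets per gene left the 10 differences as they were, since each gene has 1. Without the dimmest 50% of probe sets, Gadd45g and Eda2r were not tested. Of the list medians under the alternatives, 165 stayed within the spread between experiments and 3 moved beyond it. Of the counts of higher genes per list, 151 stayed within 1.5 times the reported count and 17 did not. Targets of cell death, for example, had 4 of 16 higher with array weights, against 7 as reported.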
